A study of Saccharomyces cerevisiae with 12 samples.

Results

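*STE11*, *FLO8* and *PCA1* are 3 yeast genes in which transcription can start inside the ORF when the Set2-Rpd3S pathway is lost, and the data here are their profiles of acetylated histone H4 (AcH4) on a tiling array. The probes were chosen by position alone: a probe was taken if its center lay inside one of the ORFs or within 700 bp on either side. This gave 50 of the 41480 nuclear probes, with 15 at *STE11* (YLR362W, chromosome 12), 17 at *FLO8* (YER109C, chromosome 5) and 18 at *PCA1* (YBR295W, chromosome 2). Of these, 31 probes lay in the ORFs and 19 in the flanks. Probes were about 60 nt long and a median of 257 bp apart, so neighboring probes can read the same DNA fragments and are not independent replicates.

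AcH4 was measured in 4 strains grown in YPD, with 3 biological repeats each, on 12 two-color arrays. The strains were *rco1*Δ, which lacks a subunit found only in the Rpd3S histone deacetylase complex, *rsc1*Δ and *rsc2*Δ, which each lack one of a pair of related bromodomain subunits of the RSC chromatin remodeling complex, and the wild type strain BY4741. The wild type is *MAT*a *his3*Δ1 *leu2*Δ0 *met15*Δ0 *ura3*Δ0, and *rco1*Δ carries *rco1*Δ::KANMX6 in that background, so these 2 strains share those auxotrophies. The full genotype of *rsc1*Δ and *rsc2*Δ is not given in the sources used here. DNA precipitated with an antibody to acetylated H4 carried Cy5 and input DNA of the same strain Cy3 on every array, with no dye swap, and both were amplified by T7 linear amplification before labeling. Each value is the log2 ratio of IP over input, with the median of all probes of the array set to 0. A value of 0 is therefore the AcH4 level of a typical probe, and a difference of 1 between strains is a 2-fold difference relative to that typical probe.

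In transcribed ORFs the methyltransferase Set2 travels with RNA polymerase II and methylates histone H3, and Rpd3S binds that mark and removes acetyl groups behind the polymerase. Without this step, acetylation persists in ORFs and sequences inside them can act as cryptic promoters. RSC slides or ejects nucleosomes and keeps promoters open, and bromodomains such as those of Rsc1 and Rsc2 bind acetylated lysines. Ste11 is the MAP kinase kinase kinase shared by the mating, filamentation and high-osmolarity pathways. Flo8 is a transcription activator of flocculin and filamentation genes, and strains related to S288C, BY4741 among them, carry a nonsense allele of it, which is why the RefSeq table lists *FLO8* as a pseudogene. Pca1 is a P-type ATPase that exports cadmium.

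RNA of these genes was followed in the study on northern blots, with probes made from a primer pair for each gene. The pairs are shown because they define which DNA of each gene the RNA probes read, in contrast to the array probes, whose letters were not used here. All are designed oligonucleotides, written 5′ to 3′, and their place on the array's assembly was not determined here.
o-STE11-11: gaaggagttacatcatgagaacattgttac
o-STE11-12: gtgtgcatccagccatggatgctgcagcaa
o-FLO8-13: gacgctcagaagcaaagaagttctaaggta
o-FLO8-14: ctcaacacgtgacttcagccttcccaatta
o-PCA1-15: gtcataattctcaatctttgttgcttggat
o-PCA1-16: ctagcttggcaacctcacttccctcattga

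Positions below are distances in bp from the start codon, counted in the direction of the gene, and negative upstream of it. They are approximate, because the array places its probes on the sacCer1 assembly and the gene limits are those of a later one, R64. The gap between the assemblies was gauged at deleted genes. All 9 probes inside the later limits of *RSC2*, which lies on chromosome 12 with 5 protein-coding genes between it and *STE11*, had log2 input of -3.55 or lower in *rsc2*Δ relative to the other strains, while the lowest of the 5 probes within 700 bp outside was at -0.54. Loss of input at *RSC1* in *rsc1*Δ (10 of 10 probes) and at *RCO1* in *rco1*Δ (6 of 6 probes) fitted the strain labels in the same way. The edge was not as clean at *MET17*, the gene of the *met15* deletion and also on chromosome 12, where all 3 probes inside had a mean log2 input of -4.25 or lower over the 12 arrays, and 3 of the 4 probes within 700 bp outside were also below -2 (lowest -4.76). The sources used here do not give the limits of the *met15* deletion, so the probes outside *MET17* cannot gauge the gap. On chromosome 5 all 3 probes in *URA3* were low in every array (array means from -6.73 to -2.82, array median at 0). No deleted gene offers such a check on chromosome 2.

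The 12 arrays differed in ways that bear on these genes. Log2 ratios were less spread out in *rco1*Δ (median absolute deviation 0.53 to 0.69) than in the RSC mutants (*rsc1*Δ 1.24 to 1.29, *rsc2*Δ 1.23 to 1.29) and wild type (1.08 to 1.14). Input spots were dimmest in *rco1*Δ replicate 3 and brightest in *rco1*Δ replicate 1, with median signals over background of 17 and 451 units. No *rco1*Δ array was scanned together with a wild type array, and only *rco1*Δ replicate 1 shared a scan day with one, wild type replicate 3. Over all nuclear probes the median difference between *rco1*Δ and wild type was -0.24. With 3 arrays a strain, precision is limited by that number.

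AcH4 in *rco1*Δ was higher than in wild type through most of each ORF. Probes called lower lay upstream of the ORF or at its start, and at *FLO8* also downstream. At *PCA1* only the probe farthest upstream was called lower. The numbers of probes called higher and called lower both changed with the processing. With 1 array left out, 19 to 22 ORF probes were called higher and 1 to 3 lower. In the same fits 4 to 7 flanking probes were called lower. In *rco1*Δ, 21 of the 31 ORF probes had a called rise and 2 a called fall (limma, Benjamini-Hochberg adjusted p under 0.05 over all nuclear probes), where 26.0% of all nuclear probes were called higher and 28.1% lower. Of the 19 flanking probes, 2 were called higher and 7 lower. The median difference was 1.61 over the ORF probes and -0.40 over the flanking probes. Among the 30 ORF probes with a value on all 6 arrays, all 3 *rco1*Δ arrays lay above all 3 wild type arrays at 21, against 28.3% of the nuclear probes with such values. At 13 of these 30 the level was above the array median in every *rco1*Δ array and below it in every wild type array, against 5.92% of the same nuclear probes, and at none of the flanking probes.

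**Figure D1:**
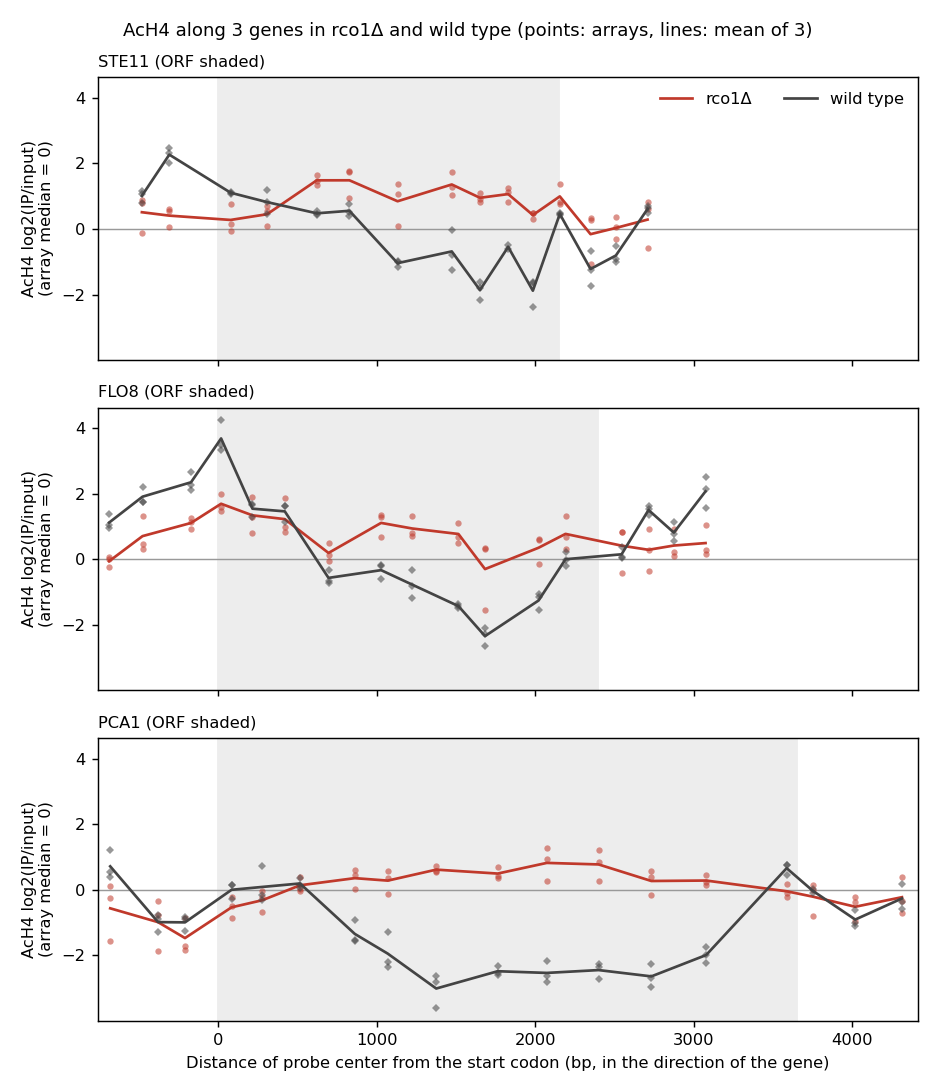
AcH4 log2(IP/input), with the array median at 0, by distance of the probe center from the start codon (bp) in *rco1*Δ and wild type, for *STE11*, *FLO8* and *PCA1*. Points are single arrays, lines join the means of 3 arrays (2 for wild type at STE11 position 1830 and PCA1 position 3754) and the ORF is shaded: the wild type line drops below 0 inside each ORF, while the *rco1*Δ line stays mostly at or above 0.

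The difference depended on the place in the ORF. None of the 8 ORF probes before position 600 was called higher and 2 were called lower, whereas 21 of the 23 ORF probes beyond it were called higher and none lower. That position was chosen after the values were seen. With the ORF cut into 3 segments of equal length, 4 of 12 probes were called higher in the start segment, 9 of 9 in the middle segment and 8 of 10 in the end segment. The first probe called higher lay at position 622 in *STE11*, 696 in *FLO8* and 862 in *PCA1*. All 3 of these calls were lost with normexp and after loess. The *rco1*Δ input was well above background on only 1 of 3 arrays at position 622 of *STE11* and on 2 of 3 at position 862 of *PCA1*, so where the rise begins rests in part on dim spots.

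**Figure D2:**
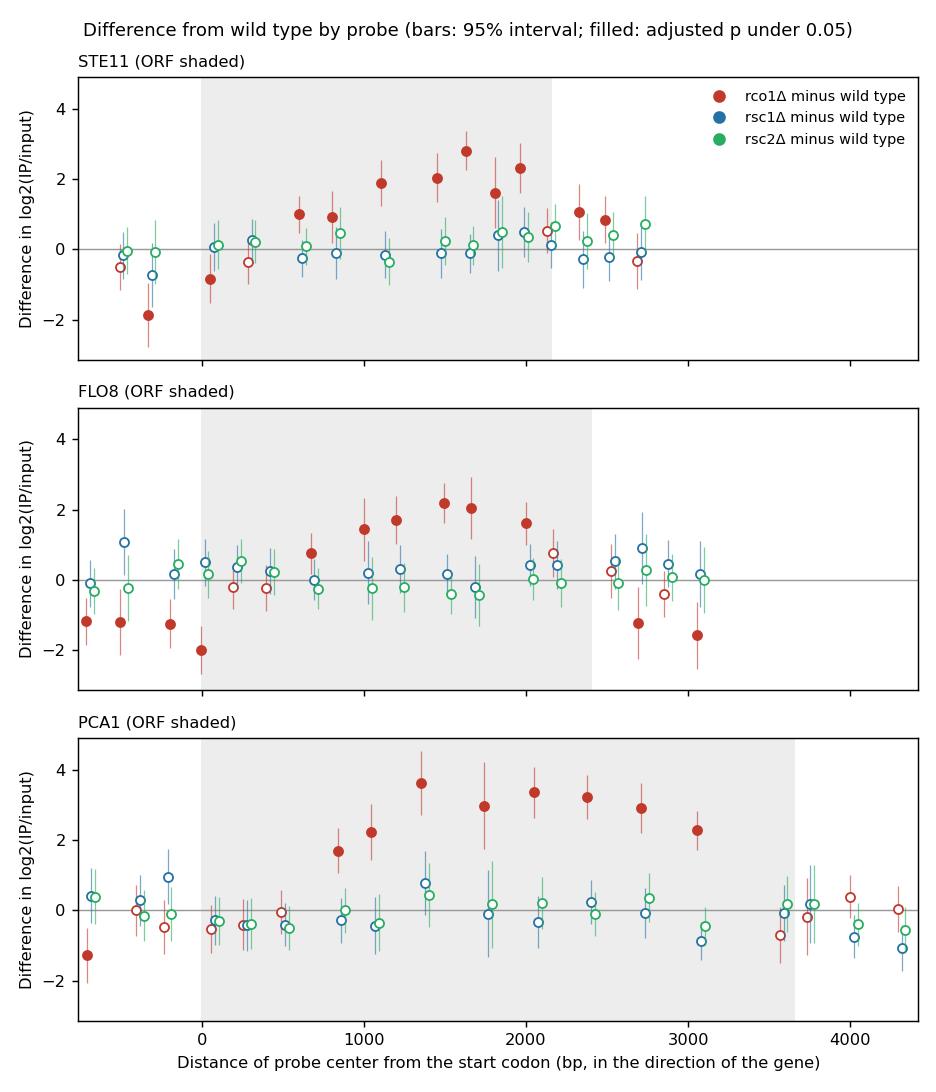
Difference in log2(IP/input) from wild type by distance of the probe center from the start codon (bp) for *rco1*Δ, *rsc1*Δ and *rsc2*Δ, drawn slightly side by side at each probe. Bars are 95% intervals of the limma fit and filled points have an adjusted p under 0.05: 32 of the 50 *rco1*Δ points are filled, and none of the *rsc1*Δ or *rsc2*Δ points.

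At *STE11*, *rco1*Δ was called higher at 7 of the 9 ORF probes and lower at 1. The probe nearest the start codon (sacCer1 chr12:849914-849973, position 78) read 0.15, 0.76 and -0.08 in *rco1*Δ, against 1.14, 1.11 and 1.07 in wild type. All 3 *rco1*Δ arrays lay below all 3 wild type arrays, a difference of -0.83 ± 0.33 (SE; limma adjusted p = 0.0419). This call was lost in 6 of the 12 fits that left out 1 array, with adjusted p between 0.0228 and 0.135 over those 12 fits, and the 6 arrays were wild type replicates 1, 2 and 3, *rsc2*Δ replicate 3 and *rco1*Δ replicates 1 and 3. The direction was also not stable, with a difference of 0.19 in the authors' value table. Further upstream, at position -309 (chr12:849528-849586), the values were 0.53, 0.07 and 0.62 in *rco1*Δ and 2.02, 2.48 and 2.31 in wild type. This promoter probe had the highest wild type level of the *STE11* probes, and it fell by 1.86 in *rco1*Δ (3.63-fold, adjusted p = 0.00195). The call was lost with wild type input for every array, where the difference was -0.16, and after loess, where it was -0.91.

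From position 622 to the end of the *STE11* ORF the order of the strains was turned round. The probe nearest the middle (chr12:850968-851027, position 1132) read 1.37, 1.08 and 0.09 in *rco1*Δ, against -0.97, -1.15 and -1.01 in wild type, a rise of 1.89 ± 0.32 (SE; adjusted p = 0.000142). The *rco1*Δ input was well above background on 2 of 3 arrays there, and the call was lost with plain background subtraction and in the authors' value table (differences of 1.33 and 1.88). The largest rise came at position 1652 (chr12:851489-851548), with 1.11, 0.93 and 0.82 in *rco1*Δ and -1.61, -2.17 and -1.80 in wild type. There the groups were far apart and the difference was 2.81 ± 0.26 (SE), or 7.03-fold (adjusted p = 1.67e-06). At position 1830 wild type replicate 1 had an outlier flag and was left out, and the rise of 1.61 there lost its call when wild type replicate 2 was also left out (adjusted p = 0.0535), and with plain subtraction, normexp, loess and scan day as a block.

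At the last ORF probe of *STE11*, position 1986, the rise was still 2.31 (limma adjusted p = 4.24e-05), a call lost with normexp and loess. The wild type IP was well above background on 2 of 3 arrays there. At the stop codon the difference was smaller. The probe that straddles the stop codon (chr12:851993-852052, position 2156, just outside the ORF by its center) read 0.78, 0.84 and 1.37 in *rco1*Δ, against 0.46, 0.47 and 0.44 in wild type. The *rco1*Δ arrays were all higher, by 0.54 with a 95% interval from -0.11 to 1.18, which did not pass the test (adjusted p = 0.145). The 2 flanking probes called higher were both beyond this point, the larger at position 2350 (chr12:852186-852245) with -1.07, 0.33 and 0.27 in *rco1*Δ and -0.69, -1.24 and -1.73 in wild type. Here *rco1*Δ replicate 1 lay within the wild type range, and both calls were lost when wild type replicate 2 or 3 or *rco1*Δ replicate 2 or 3 was left out. Both were also lost with plain subtraction, normexp, loess, a common spread, the authors' value table and scan day as a block. The stretch after *STE11* leads into the end of *NMD4*, which runs toward it from the other strand.

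At *FLO8*, *rco1*Δ was called higher at 6 of the 10 ORF probes and lower at 1. The probe at the start codon (chr5:377566-377625, position 18) held the highest wild type level of all 50 probes. Its values were 1.61, 1.48 and 2.00 in *rco1*Δ and 3.34, 4.24 and 3.49 in wild type. The groups did not overlap, and the level fell by 1.99 in *rco1*Δ (SE 0.32, 3.98-fold, adjusted p = 0.000102), yet *rco1*Δ still had more AcH4 here than at its typical probe. This call was lost with a common spread for all arrays, in the authors' value table, with wild type input for every array and after loess, while the difference stayed negative in every fit. All 3 upstream probes were called lower as well, with differences from -1.24 to -1.18, and the one at position -478 lost its call without wild type replicate 2 or 3 or *rco1*Δ replicate 2 or 3. All 3 of these calls were lost with plain subtraction, in the authors' value table and with scan day as a block. The *rco1*Δ input was well above background on 2 of 3 arrays at positions -689 and -478, as was the *rco1*Δ IP at -689. The next ORF probes, at positions 216 and 420, differed by -0.20 and -0.24 and did not pass the test.

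Inside *FLO8* the level dropped in both strains, and less in *rco1*Δ. The probe nearest the middle of the ORF (chr5:376360-376419, position 1224) read 0.82, 0.71 and 1.31 in *rco1*Δ, against -1.17, -0.81 and -0.32 in wild type, a rise of 1.71 ± 0.33 (SE; adjusted p = 0.000415). This call was lost after loess (0.44) and with scan day as a block (1.14). The largest rise was at position 1516 (chr5:376068-376127), where the arrays read 0.51, 0.70 and 1.12 in *rco1*Δ and -1.36, -1.48 and -1.43 in wild type. The difference there was 2.20 ± 0.27 (SE), or 4.59-fold (adjusted p = 9.45e-06). The lowest wild type level of *FLO8* followed at position 1684, with 0.35, 0.32 and -1.55 in *rco1*Δ and -2.64, -2.27 and -2.10 in wild type. All *rco1*Δ arrays were higher, although *rco1*Δ replicate 3 was close to the wild type values. The first probe called higher, at position 696, was the least secure of the 6: its rise of 0.76 lost the call without wild type replicate 1 or 3 or *rco1*Δ replicate 1 or 2 (adjusted p between 0.0206 and 0.0987 over 12 fits) and was -0.02 after loess.

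Beyond the *FLO8* stop codon AcH4 was lower in *rco1*Δ at 2 of 4 probes. The probe nearest the stop codon lay past it (chr5:375039-375098, position 2546) and read -0.42, 0.84 and 0.84 in *rco1*Δ and 0.37, 0.03 and 0.07 in wild type, with overlapping groups and a difference of 0.26 (adjusted p = 0.551). The largest fall was at position 3076 (chr5:374508-374567), with 0.15, 0.28 and 1.06 in *rco1*Δ and 1.56, 2.52 and 2.15 in wild type. That is a fall of 1.58 with groups that did not overlap (adjusted p = 0.0072). The call was lost with wild type input for every array (-0.39), after loess (-0.54), with a common spread (-1.14) and with scan day as a block. In the gene order this side of *FLO8* meets the start of *GLE2*, a nuclear pore gene that lies downstream on the same strand. The smaller fall, 1.21 at position 2716 (adjusted p = 0.0429), was lost in 6 of the 12 fits that left out 1 array and with plain subtraction, normexp, loess, a common spread, the authors' value table, wild type input, the repeat number as a block and scan day as a block.

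At *PCA1*, the longest of the 3 genes, *rco1*Δ was called higher at 8 of the 12 ORF probes and lower at none. The probe nearest the start codon (chr2:792906-792961, position 84) read -0.22, -0.50 and -0.87 in *rco1*Δ and -0.27, 0.14 and 0.13 in wild type. These groups overlapped, and the difference of -0.53 (95% interval -1.22 to 0.15) did not pass the test (adjusted p = 0.173). Unlike at the other 2 genes, the wild type level at the start of *PCA1* was near or below the array median, with a mean of -0.42 over the upstream probes, against 1.64 at *STE11* and 1.80 at *FLO8*. The only flanking probe called was the one farthest upstream, at position -682 (chr2:792138-792197), where the values were -1.55, -0.26 and 0.12 in *rco1*Δ and 0.39, 1.22 and 0.55 in wild type. It fell by 1.28 (adjusted p = 0.00883), a call that was lost without wild type replicate 2 or *rco1*Δ replicate 1 (highest adjusted p = 0.0573). It was also lost with plain subtraction (-1.19), normexp (-1.04), loess (-0.77) and wild type input for every array (-0.50). At position -380 the IP signal was not well above background on any *rco1*Δ array, so the value there is only a bound, and no fold is given.

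Through the middle of *PCA1* the wild type level was far below the array median. The largest estimated rise was at position 1376 (chr2:794196-794255), with 0.55, 0.56 and 0.74 in *rco1*Δ and -2.62, -3.60 and -2.80 in wild type. The groups did not overlap, and the fitted difference was 3.63 ± 0.43 (SE; adjusted p = 7.34e-06). It is given with no fold, because the wild type IP was well above background on only 1 of 3 arrays and the *rco1*Δ input on 2 of 3. The difference was 1.33 with normexp and 0.53 after loess, where the call was lost. The probe nearest the middle of the ORF (chr2:794583-794642, position 1764) read 0.70, 0.43 and 0.37 in *rco1*Δ and -2.59, -2.31 and -2.55 in wild type, a rise of 2.98 ± 0.59 (SE; adjusted p = 0.00055). There too the wild type IP was well above background on only 1 of 3 arrays, and the call was lost after loess (0.74). At positions 862 and 2074 the wild type IP and the *rco1*Δ input were each well above background on 2 of 3 arrays. At positions 2401, 2734 and 3080 the IP signal was well above background on all 3 arrays of both strains, and the rises were 3.22, 2.91 and 2.27, but the *rco1*Δ input passed on 2 of 3 arrays at 2401 and 3080. Only 6 of the 12 *PCA1* ORF probes had *rco1*Δ input well above background on all 3 arrays. With both channels clear on all 3 arrays of both strains, the rises at positions 1070 and 2734 were 2.23 and 2.91, and after loess they were 0.45 and 1.11. The call at 1070 was lost with plain subtraction, normexp and loess, and that at 2734 was kept in every fit.

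The rise ended before the stop codon of *PCA1*. The probe nearest it (chr2:796407-796466, position 3588) read -0.09, -0.21 and 0.17 in *rco1*Δ and 0.74, 0.77 and 0.47 in wild type. It was the only probe of the end segment of *PCA1* at which *rco1*Δ lay below wild type, by 0.70 (95% interval of the difference -1.50 to 0.09, adjusted p = 0.122). None of the 3 probes downstream was called. *PHO89*, a phosphate transporter gene on the opposite strand, ends in this stretch.

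The region means showed the same pattern array by array. In the end segment of *STE11* the mean was 0.91 ± 0.19 in *rco1*Δ and -1.48 ± 0.42 in wild type (SD, n = 3 each). In the middle segment of *FLO8* it was 0.94 ± 0.30 in *rco1*Δ and -0.84 ± 0.17 in wild type. In the middle segment of *PCA1* it was 0.68 ± 0.26 in *rco1*Δ and -2.62 ± 0.09 in wild type. The *rco1*Δ and wild type arrays did not overlap in the middle and end segments of any of the 3 genes, while in the start segments they overlapped in all 3. In the upstream regions every *rco1*Δ array lay below every wild type array, with means of 0.46 ± 0.23 in *rco1*Δ and 1.64 ± 0.21 in wild type at *STE11*, 0.59 ± 0.16 in *rco1*Δ and 1.80 ± 0.04 in wild type at *FLO8*, and -1.01 ± 0.64 in *rco1*Δ and -0.42 ± 0.20 in wild type at *PCA1*. At *PCA1* the nearest arrays were at -0.63 in *rco1*Δ and -0.54 in wild type. That mean includes position -380, where no *rco1*Δ IP was well above background, and most of its difference came from position -682. At *FLO8* position -172 the difference of -1.24 was -0.12 in the authors' value table, -0.24 with a common spread and -0.29 with wild type input. The upstream mean of *STE11* is of 2 probes. The difference of -1.86 at position -309 was -0.16 with wild type input. Position -482 was not called (-0.50, limma adjusted p = 0.184). How often region means lie apart in this way over the whole array was not determined.

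**Figure D3:**
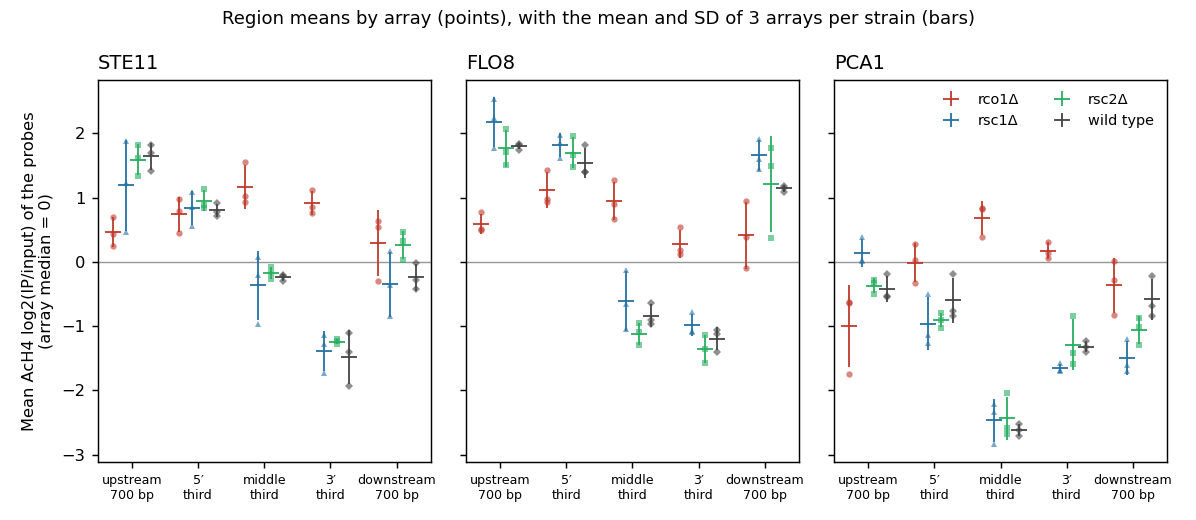
Mean AcH4 log2(IP/input) of the probes in the 700 bp upstream, the 3 equal segments of the ORF and the 700 bp downstream of *STE11*, *FLO8* and *PCA1*, from left to right in *rco1*Δ, *rsc1*Δ, *rsc2*Δ and wild type. Points are arrays and bars the mean ± SD of 3 arrays; *rco1*Δ stands above the other 3 strains in the middle and end segments.

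The profiles along the ORF were flatter in *rco1*Δ. The start segment minus the end segment was -0.34, 0.22 and -0.41 at *STE11* in *rco1*Δ, against 1.82, 2.84 and 2.17 in wild type. At *FLO8* it was 0.76, 0.45 and 1.31 in *rco1*Δ and 2.80, 2.87 and 2.52 in wild type. At *PCA1* it was -0.04, -0.12 and -0.39 in *rco1*Δ and 0.48, 1.04 and 0.64 in wild type. So at *STE11* and *PCA1* the fall from start to end that every wild type array showed was absent or reversed in all but 1 of the *rco1*Δ values, and at *FLO8* it was smaller in every *rco1*Δ array. The SD of the probe levels along the ORF was likewise lower in *rco1*Δ, with 0.55 ± 0.19 in *rco1*Δ against 1.22 ± 0.22 in wild type at *STE11*, 0.66 ± 0.37 in *rco1*Δ against 1.78 ± 0.13 in wild type at *FLO8*, and 0.45 ± 0.14 in *rco1*Δ against 1.35 ± 0.12 in wild type at *PCA1*. The narrower spread of the *rco1*Δ arrays over all probes moves with these values, and its part in them was not tested.

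Over the whole ORF the mean was 0.91 ± 0.19 in *rco1*Δ and -0.31 ± 0.12 in wild type at *STE11* (8 probes with a value on every array), 0.81 ± 0.18 in *rco1*Δ and 0.0038 ± 0.13 in wild type at *FLO8*, and 0.26 ± 0.18 in *rco1*Δ and -1.45 ± 0.14 in wild type at *PCA1*. The differences were 1.22, 0.81 and 1.72, and their order changed with wild type input, a common spread, loess or the filter on dim probes. The IP channel moved with them: the mean log2 IP over the ORF, with the array median at 0, was higher in *rco1*Δ by 1.13 at *STE11*, 1.42 at *FLO8* and 1.27 at *PCA1*, and the *rco1*Δ and wild type arrays did not overlap at any of the 3. The input moved too. At *FLO8* the input over the ORF was higher in *rco1*Δ by 0.64 (1.38, 0.27 and 0.36 in *rco1*Δ, against 0.14, -0.02 and -0.02 in wild type), *rco1*Δ replicate 1 being far above the others. At *PCA1* the input was lower by 0.42 with overlapping arrays, and at *STE11* it differed by -0.06. With the mean wild type input as the divisor for every array, the ORF differences were 1.16 at *STE11*, 1.45 at *FLO8* and 1.29 at *PCA1*.

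Within the single scan day that held both strains, with 1 array each, the ORF means differed by 1.41 at *STE11*, 0.60 at *FLO8* and 2.02 at *PCA1*. With scan day as a block the difference rested on the same pair of arrays, because *rco1*Δ replicates 2 and 3 were each alone on a scan day. Calls said above to be lost with that block therefore rest on 1 array of each strain, and its counts of calls are not given. With the 6 arrays of *rsc1*Δ and *rsc2*Δ in place of the wild type arrays, 21 ORF probes were called higher. Of the 21 ORF probes called higher, 18 were called in all 12 fits that left out 1 array. The count depended on the background step, with 12 ORF probes called higher after normexp and 6 after normexp and loess. A filter that kept only the 17 ORF probes with clear IP and input signal on each of the 12 arrays left 9 called higher. The share of all nuclear probes called is given for the main fit only. Counts in the other settings therefore only describe these probes.

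No probe of the 3 genes was called in *rsc1*Δ or *rsc2*Δ against wild type, where 0.108% of all nuclear probes were called for *rsc1*Δ and 0.528% for *rsc2*Δ. Both comparisons, and that of *rco1*Δ, share the 3 wild type arrays. At an unadjusted p under 0.05, *rsc1*Δ passed at 5 of 50 probes, where 8.05% of all nuclear probes did, and *rsc2*Δ at 1 of 50, where 14.1% did. Their lowest adjusted p values were 0.319 for *rsc1*Δ and 0.347 for *rsc2*Δ. The 95% interval of a single probe's difference reached 0.69 to either side at the median probe, so differences of that size were within the error with 3 arrays a strain. A call over all nuclear probes needed more than that. In *rsc1*Δ, differences of -1.08 at *PCA1* position 4316 and 1.07 at *FLO8* position -478 were not called (limma adjusted p = 0.319 and 0.57). Changes of about 1 at one probe could thus also be missed. Over the 31 ORF probes the differences had medians of -0.06 (*rsc1*Δ) and 0.10 (*rsc2*Δ).

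**Figure D4:**
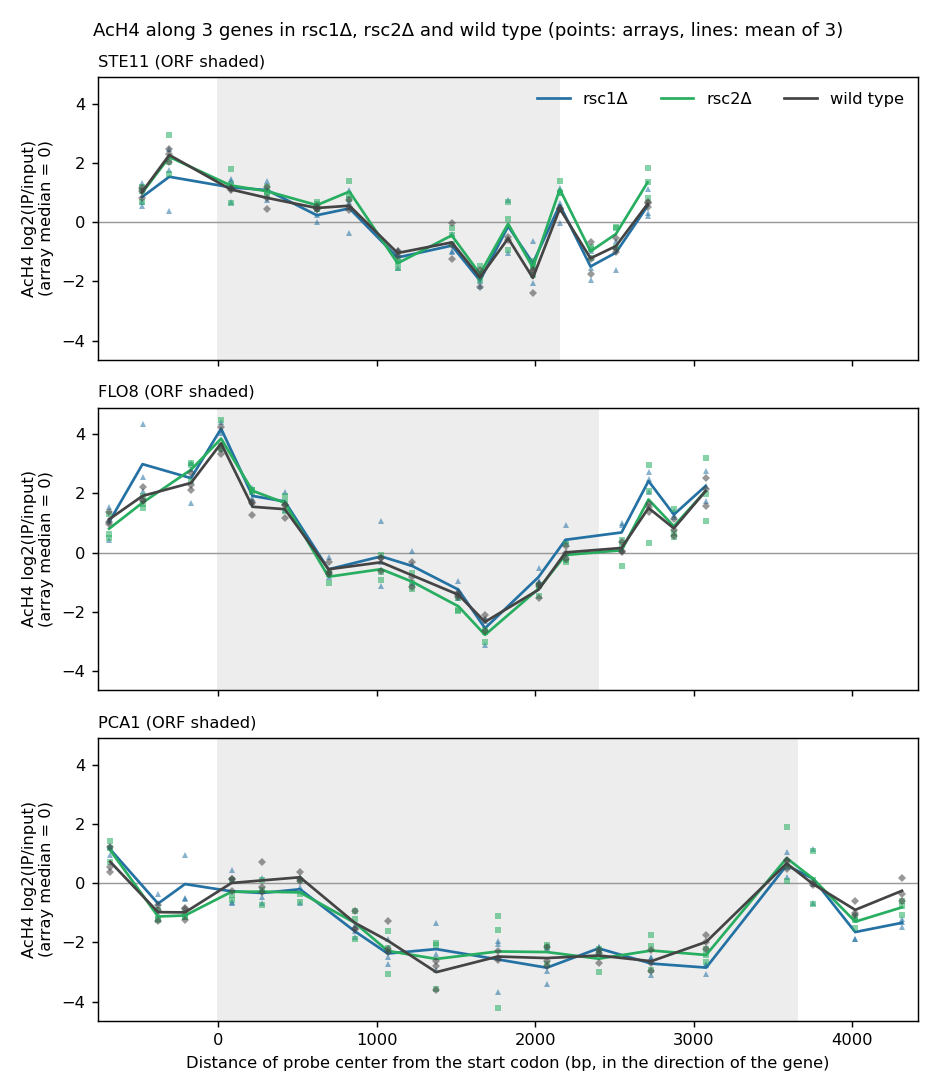
AcH4 log2(IP/input), with the array median at 0, by distance of the probe center from the start codon (bp) in *rsc1*Δ, *rsc2*Δ and wild type for *STE11*, *FLO8* and *PCA1*. Points are arrays and lines the means over the arrays of a strain: all 3 lines drop below 0 inside each ORF, and no single probe passed the test.

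The start segment lay above the end segment in every RSC mutant array, as in every wild type array, except *rsc2*Δ replicate 1 at *PCA1* (-0.06). At *STE11* the start segment minus the end segment was 2.21 ± 0.52 in *rsc1*Δ, 2.20 ± 0.16 in *rsc2*Δ and 2.28 ± 0.52 in wild type (SD, n = 3 each). At *FLO8* it was 2.80 ± 0.12 in *rsc1*Δ, 3.06 ± 0.20 in *rsc2*Δ and 2.73 ± 0.18 in wild type. At *PCA1* it was 0.69 ± 0.35 in *rsc1*Δ, 0.38 ± 0.38 in *rsc2*Δ and 0.72 ± 0.29 in wild type. In each gene the mutant arrays overlapped the wild type arrays. The ORF means differed from wild type by 0.02, 0.25 and -0.19 in *rsc1*Δ at *STE11*, *FLO8* and *PCA1*, and by 0.16, -0.07 and -0.06 in *rsc2*Δ, each with overlapping arrays except *rsc2*Δ at *STE11*. There the *rsc2*Δ arrays read -0.16, -0.11 and -0.20, just above the wild type values of -0.20, -0.43 and -0.31.

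The probes with the lowest p in *rsc1*Δ were at *PCA1* and were chosen after their values were seen. At position 4316, downstream of the gene, the arrays read -1.21, -1.31 and -1.50 in *rsc1*Δ and 0.17, -0.36 and -0.59 in wild type, a difference of -1.08 (95% interval -1.74 to -0.43) with an adjusted p of 0.319. At position 3080, near the end of the ORF, they read -2.77, -3.07 and -2.72 in *rsc1*Δ and -1.75, -2.23 and -1.98 in wild type, a difference of -0.87 with an adjusted p of 0.35. In both cases all *rsc1*Δ arrays were below all wild type arrays without passing the test over all probes. The promoter of *PCA1* read the other way, with an upstream mean of 0.14 ± 0.21 in *rsc1*Δ and -0.42 ± 0.20 in wild type. That mean includes position -210, which read -0.51, -0.54 and 0.94 in *rsc1*Δ. IP and input there were each well above background on 2 of 3 *rsc1*Δ arrays. Upstream of *STE11* the mean was 1.19 ± 0.71 in *rsc1*Δ and 1.64 ± 0.21 in wild type. Upstream of *FLO8* it was 2.18 ± 0.38 in *rsc1*Δ and 1.80 ± 0.04 in wild type, and at both genes the arrays overlapped. The downstream mean of *PCA1* was -1.50 ± 0.26 in *rsc1*Δ, -1.06 ± 0.21 in *rsc2*Δ and -0.58 ± 0.32 in wild type. Downstream means without overlap went the other way at the other genes. They were 1.66 ± 0.24 in *rsc1*Δ and 1.14 ± 0.05 in wild type at *FLO8*, and 0.27 ± 0.22 in *rsc2*Δ and -0.24 ± 0.21 in wild type at *STE11*. The arrays of *rsc2*Δ at *FLO8* and of *rsc1*Δ at *STE11* overlapped wild type.

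Set directly against each other, no difference between *rsc1*Δ and *rsc2*Δ passed the test at the 50 probes (0.943% of all nuclear probes were called). An unadjusted p under 0.05 was reached at 3 of the 50, and at 12.1% of all nuclear probes. The largest difference was 1.30 at *FLO8* position -478, where the arrays read 2.07, 2.54 and 4.34 in *rsc1*Δ, against 1.51, 1.90 and 1.65 in *rsc2*Δ (adjusted p = 0.21). It was set largely by *rsc1*Δ replicate 3. Input at this probe was well above background on 2 of 3 arrays in *rsc1*Δ and on 2 of 3 in *rsc2*Δ. Over the ORF probes the differences ran from -0.57 to 0.56, with 95% intervals that reached from -1.51 to 1.33 at their extremes.

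ORF probes above or below the array median in every array with a value were also counted in the 4 strains. The share of all nuclear probes that does so was not determined, so the counts only describe these probes. They also depend on how well replicates agree. The lowest correlation between replicates was 0.70 in *rco1*Δ, 0.93 in *rsc1*Δ, 0.92 in *rsc2*Δ and 0.94 in wild type. In *rco1*Δ, 21 of the 31 ORF probes lay above the median in every array and 2 lay below it in every array. The counts above and below were 7 and 16 for *rsc1*Δ, 8 and 18 for *rsc2*Δ, and 9 and 19 for wild type. At *PCA1* 6 of 12 ORF probes were above in *rco1*Δ, against 1 in *rsc1*Δ, 1 in *rsc2*Δ and 2 in wild type. The files assign probes to positions and not to genes, so other genes of the mating, filamentation and metal transport pathways were not described.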

How the data were processed

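AcH4 ChIP-chip data of 12 arrays were used, with 3 biological repeats of each strain as the labels give them. Per the labels, spots were quantified with Agilent Feature Extraction 10.5.1.1. For each array the authors deposited its spot file, with processed and median signals as linear intensity values, and for the series a table of normalized log2 ratios. Their methods name 2 limma steps, a median normalization of each array and Aquantile across arrays, and the second of these changed no log2 ratio here. The deposited spot flags (well above background, saturated, outlier) were used as given. The LogRatio and p-value columns are the authors' own per-spot comparisons of IP with input and were not used. Every column of the value table belonged to a sample.

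The log2 of the Cy5 over the Cy3 processed signal (background-subtracted and dye-corrected by the scanner software) had the median over the array's 41775 non-control probes subtracted. Outlier-flagged spots were dropped, which removed 2 values at the 3 genes, both of wild type replicate 1, and no spot was saturated. Region means used the probes with a value on every array. One limma model (version 3.58.1 under R 4.3.3; lmFit, then eBayes) over all 12 arrays and 4 strains was fitted to the 41480 nuclear probes, and a probe was called at a Benjamini-Hochberg adjusted p under 0.05. The script was tested on simulated arrays. The members, gene lists and tests were chosen with earlier results of these data known. Probes given array by array were those nearest the start codon, the middle of the ORF and the stop codon of each gene, and those with the largest called rise and fall in *rco1*Δ in the ORF and in the flanks. Likeness to other genes and the fixed pathway lists were not described, since probes were not assigned to genes on the array's assembly. A RefSeq table of R64 gave gene names and neighbors only, and all 3 symbols were found. Same-numbered *rco1*Δ and wild type arrays did not deviate from their groups together, so no pairs were assumed.

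The alternatives were plain subtraction and normexp (offset 50) on median signals, loess after normexp, a common spread, the authors' value table, Aquantile, wild type input, removal of dim probes, the repeat number or the scan as a block, the compared arrays alone, an adjusted p under 0.01, the genes moved by 50 bp, and each array left out. Scan day as a block, values within a scan or scan day, and *rsc1*Δ and *rsc2*Δ arrays as the comparison were chosen after seeing the data. Plots were drawn with matplotlib 3.10.9.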

Additional observations from a re-analysis of the deposited data

Results flagged for a closer look

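These values come from the input channel, which the comparisons use only as a divisor, and were picked out because the 3 mutant arrays all lay above the 3 wild type arrays (mean log2 input over the gene and its flanks, array median at 0). At *FLO8* the input was 1.00, 0.19 and 0.39 in *rco1*Δ and 0.01, -0.05 and -0.07 in wild type, a difference of 0.56. At *STE11* it was 0.34, -0.11 and 0.12 in *rco1*Δ and -0.21, -0.18 and -0.12 in wild type, a difference of 0.29. Also at *STE11* it was -0.02, 0.07 and 0.20 in *rsc1*Δ, against the same wild type values, a difference of 0.25. No test was made, and the part of the input in the log2 ratios is given by the values with wild type input. Groups of 3 arrays were not tested for single arrays that stand apart.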

How the results depend on the processing

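The 21 ORF probes called higher in *rco1*Δ became 12 with normexp, 6 with loess after normexp and 9 with the filter on dim probes (of 17 tested, so fewer probes were left), and were between 14 and 23 in the other settings and between 19 and 22 with 1 array left out. Of these 21 probes, 20 kept their sign in every fit, and no called probe was called the other way. The count of ORF probes called lower, 2 in the main fit, was 0 with loess and the value table and 5 with the RSC mutant arrays as the comparison. It was 1 with plain subtraction, normexp, common spread or adjusted p under 0.01, and 1 to 3 with 1 array left out. The count of flanking probes called higher, 2 in the main fit, was 0 with plain subtraction, normexp, the value table or adjusted p under 0.01. It was 1 with loess or common spread, 4 with wild type input or the RSC mutant arrays, and 0 to 2 with 1 array left out. The count of flanking probes called lower, 7 in the main fit, was 2 with plain subtraction, 1 with loess and 3 with the value table. It was 4 with normexp, common spread, wild type input or the dim filter, and 4 to 7 with 1 array left out. The share of all nuclear probes called in each of these settings is not given here, so the counts only describe the probes of the 3 genes. The probes called were not the same in every setting. With loess or common spread both flanking probes called higher in the main fit lost their calls, so the 1 called there was another probe. With common spread both ORF probes called lower in the main fit lost theirs. The cause was not tested. No probe was called in *rsc1*Δ, in *rsc2*Δ or between them under any setting.

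The *rco1*Δ minus wild type ORF means moved by more than the spread between replicates as follows. At *STE11* (1.22) they were 0.61 with normexp, 0.49 with loess, 1.97 with common spread, 1.66 in the value table, 0.44 with the dim filter and 1.41 within the scan day (1.13 to 1.32 with 1 array left out). At *FLO8* (0.81) they were 0.56 with plain subtraction, 0.33 with normexp, 0.28 with loess, 1.45 with common spread, 1.45 with wild type input, 0.58 with the dim filter, 1.12 with the gene moved 50 bp to the left and 0.60 within the scan day (0.72 to 0.90). At *PCA1* (1.72) they were 0.78 with normexp, 0.35 with loess, 1.95 in the value table, 1.29 with wild type input, 0.79 with the dim filter and 2.02 within the scan day (1.61 to 1.80). For *rsc1*Δ the means moved to 0.18 at *STE11* with wild type input, and to 0.11 at *FLO8* and 0.023 at *PCA1* within the scan, and with 1 array left out they lay at -0.04 to 0.07, 0.18 to 0.32 and -0.31 to -0.06 at *STE11*, *FLO8* and *PCA1*. For *rsc2*Δ they moved to 0.27 at *STE11* with the dim filter, 0.12 at *FLO8* within the scan and 0.13 at *PCA1* in the value table, and lay at 0.10 to 0.22, -0.15 to -0.0011 and -0.13 to 0.04 with 1 array left out.

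Arrays with the same repeat number did not move together: the correlation of their deviations was -0.10, 0.02 and -0.02 for *rco1*Δ and wild type replicates 1, 2 and 3. With the repeat number as a block, 21 ORF probes were called higher and 1 lower in *rco1*Δ, and 2 flanking probes were called higher and 6 lower, with none called in *rsc1*Δ or *rsc2*Δ.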
